A study of Mus musculus with 93 samples.

Results

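Amino acid breakdown and the urea cycle were followed in the liver through 43 genes, chosen by name as the enzymes of the urea cycle and of the main routes by which amino acids are degraded, with a mitochondrial ornithine carrier among them. All 43 matched a row of the table of 53465 genes and all 43 passed the filter on low counts, which left 19110 genes for testing. The lowest count of any of them in any mouse was 416 reads, so counting error was small beside the spread between mice. The liver takes up amino acids from the portal blood, removes their nitrogen by transamination and deamination, and makes urea from it, while the carbon skeletons go to glucose, fat or energy production. Urea synthesis and much of the breakdown of amino acids are known to run mainly in the hepatocytes around the portal vein, and the genes are classically raised by fasting, glucagon, glucocorticoids and protein intake, and lowered by insulin.

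Liver RNA of 93 male mice was sequenced, from the wild-derived strains CAST/EiJ, PWK/PhJ and WSB/EiJ and the classical strains 129S1/SvImJ, A/J, C57BL/6J and DBA/2J, each on a control diet (CD) or a western-style diet (WD). All mice were housed at 30 °C from 6 weeks of age and received their diet from 7 weeks of age, so thermoneutral housing was shared by every group. WD held 40% of its energy as fat and 43% as carbohydrate, and CD 10% and 73%, whereas both held 17% as protein. The number of mice on CD and on WD was 7 and 8 in CAST/EiJ, 6 and 7 in PWK/PhJ, 6 and 6 in WSB/EiJ, 7 and 6 in 129S1/SvImJ, 5 and 6 in A/J, 8 and 8 in C57BL/6J, and 6 and 7 in DBA/2J. All the strains are inbred, and CAST/EiJ and PWK/PhJ stem from other subspecies of house mouse than most laboratory strains.

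Each mouse had between 40020424 and 49894856 reads on genes. The hepatocyte markers were high in every mouse, with a summed level of 10 markers of 78770 to 230800 CPM (the count of a gene relative to the TMM-scaled size of its library). Unmapped reads made up 10.8% ± 1.66 (SD, n = 7) of the reads in CAST/EiJ on CD and 13.3% ± 1.01 (n = 8) on WD, against group means of 2.11% to 7.88% elsewhere. The reads had been mapped to the genome of C57BL/6J, and the part of this in any difference between strains was not tested. The libraries of C57BL/6J CD replicate 2 and C57BL/6J WD replicate 3 stood furthest from their groups over all genes, with root mean square deviations of 0.868 and 0.621 on the log2 scale, so the C57BL/6J counts are given with and without both. Mice came in 7 cohorts, as the labels name them, and both cohorts of WSB/EiJ held no other strain, so that cohort and strain cannot be told apart there. In whole liver, fewer cells of a type and less RNA per cell cannot be told apart.

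Of the 43 genes, 36 have an entry in the RefSeq table of promoters (GRCm38.p6), and the 150 bases before the start site are shown for 5 of them that were called in 2 or more strains, always in the same direction. Agxt (chr1:93135090-93135239, plus strand), Got1 (chr19:43524606-43524755, minus strand) and Tat (chr8:109990286-109990435, plus strand) fell on WD, and Agxt2 (chr15:10358383-10358532, plus strand) and Bckdhb (chr9:83924987-83925136, plus strand) rose. Each is written 5′ to 3′ on the strand of its gene. Capitals mark matches, on either strand, to the TATA box (TATAAA), the CCAAT box (CCAAT), the GC box (GGGCGG), the C/EBP site (TTGCNNAA), the core of a cAMP response element (TGACG), a FOXO site (GTAAACA), a FOXA site (TGTTTGC), an HNF4 site (CAAAGTCCA) or a single arm of a glucocorticoid receptor site (TGTTCT).
Agxt: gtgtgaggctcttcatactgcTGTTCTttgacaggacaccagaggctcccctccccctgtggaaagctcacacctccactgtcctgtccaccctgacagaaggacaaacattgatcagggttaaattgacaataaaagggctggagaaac
Got1: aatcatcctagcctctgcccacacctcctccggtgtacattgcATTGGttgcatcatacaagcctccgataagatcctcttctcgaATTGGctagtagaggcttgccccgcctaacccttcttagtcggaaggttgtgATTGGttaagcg
Tat: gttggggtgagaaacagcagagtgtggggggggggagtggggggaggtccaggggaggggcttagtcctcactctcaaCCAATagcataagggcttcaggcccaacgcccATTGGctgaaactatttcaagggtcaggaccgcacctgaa
Agxt2: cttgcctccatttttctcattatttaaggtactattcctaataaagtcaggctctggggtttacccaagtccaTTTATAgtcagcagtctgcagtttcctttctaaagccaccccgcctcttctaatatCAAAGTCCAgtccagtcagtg
Bckdhb: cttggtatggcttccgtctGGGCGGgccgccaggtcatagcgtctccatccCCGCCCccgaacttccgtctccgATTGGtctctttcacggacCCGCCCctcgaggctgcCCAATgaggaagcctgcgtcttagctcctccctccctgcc
Got1 holds 3 CCAAT boxes, Tat and Bckdhb hold them as well, Bckdhb also holds GC boxes, and Agxt2 holds the HNF4 sequence between 13 and 21 bases before its start. Over the 250 bases before the start, the CCAAT box was found in 17 of the 36 promoters (47.2%) and in 33.8% of all 32817 promoters in the table, and the GC box in 16 (44.4%) against 32.7%. The HNF4 sequence was in 1 of 36 (2.78%) and in 0.384% of all promoters, the FOXA sequence in 3 (8.33%) against 4.3%, and the FOXO sequence in 0 against 3.16%. The C/EBP sequence was in 3 (8.33%) against 9.57%, the TATA box in 3 (8.33%) against 12.4%, the cAMP response element core in 4 (11.1%) against 17.7%, and the glucocorticoid receptor arm in 4 (11.1%) against 16.1%. For each of the 36 genes only the window nearest the annotated gene start was used. The 32817 hold every window in the table, so a gene may count there more than once. A match is a run of letters in this window and says nothing about binding in these livers.

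To find which of the 43 genes responded to WD, CD and WD were compared within each strain with limma-voom, with adjustment over the 19110 genes and a threshold of 0.05. In C57BL/6J, 13 members rose and 9 fell, where 14.3% of all genes tested were called up and 11.9% down. Without the C57BL/6J libraries that stood apart, 17 rose and 9 fell, and in a fit of C57BL/6J alone, 5 rose and 3 fell. In DBA/2J 10 rose and 8 fell, against 10.2% up and 7.77% down over all genes. A/J had 5 up and 7 down, against 4.39% and 4.64%. With cohort as a covariate, 2 rose and 5 fell in A/J, with upper-quartile in place of TMM factors 6 rose and 4 fell, and leaving out 1 A/J mouse at a time gave 7 (without CD replicate 1, WD replicate 3 or WD replicate 4) to 11 calls. In 129S1/SvImJ 4 rose and 12 fell, against 14.5% and 13.6%, but 8 rose and 7 fell with upper-quartile factors, and 11 rose and 17 fell in a fit of this strain alone. CAST/EiJ had 6 up and 8 down, against 9.77% and 9.73%, or 3 and 5 in a fit of this strain alone, and PWK/PhJ 4 up and 9 down, against 15.1% and 14.5%. In WSB/EiJ 4 rose and 0 fell, against 4.97% and 3.97%, and 2 had an unadjusted p under 0.05 and a lower level on WD. By edgeR's quasi-likelihood test and by DESeq2, 5 rose and 0 fell in WSB/EiJ.

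As a share of the 43, the members called up ran from 9.3% (4 genes in 129S1/SvImJ, WSB/EiJ and PWK/PhJ) to 30.2% in C57BL/6J, and those called down from 0 in WSB/EiJ to 27.9% in 129S1/SvImJ. The median log2 fold change of the 43 was 0.07 in WSB/EiJ and -0.11 in PWK/PhJ, while the median of all genes tested stayed between -0.01 and 0.02 in each strain. In the mean over the 7 strains, 16 members rose and 14 fell, where 27.1% of all genes were called up and 24.5% down. In total, 38 of the 43 were called in at least 1 strain, 17 of them only upward, 14 only downward and 7 in both directions, in different strains. Each gene had 7 tests here, and the matching shares over all genes were not computed, so these counts stand without a background. The 5 that were called in no strain were Otc, Hpd, Fah, Kmo and Dbt. Of the 99 calls, 93 had the same sign in every cohort of the strain, and the share among the calls of all genes was not computed. The exceptions were Cps1 and Nags in C57BL/6J, and Slc25a15, Aass, Amt and Gcsh in CAST/EiJ.

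**Figure D1:**
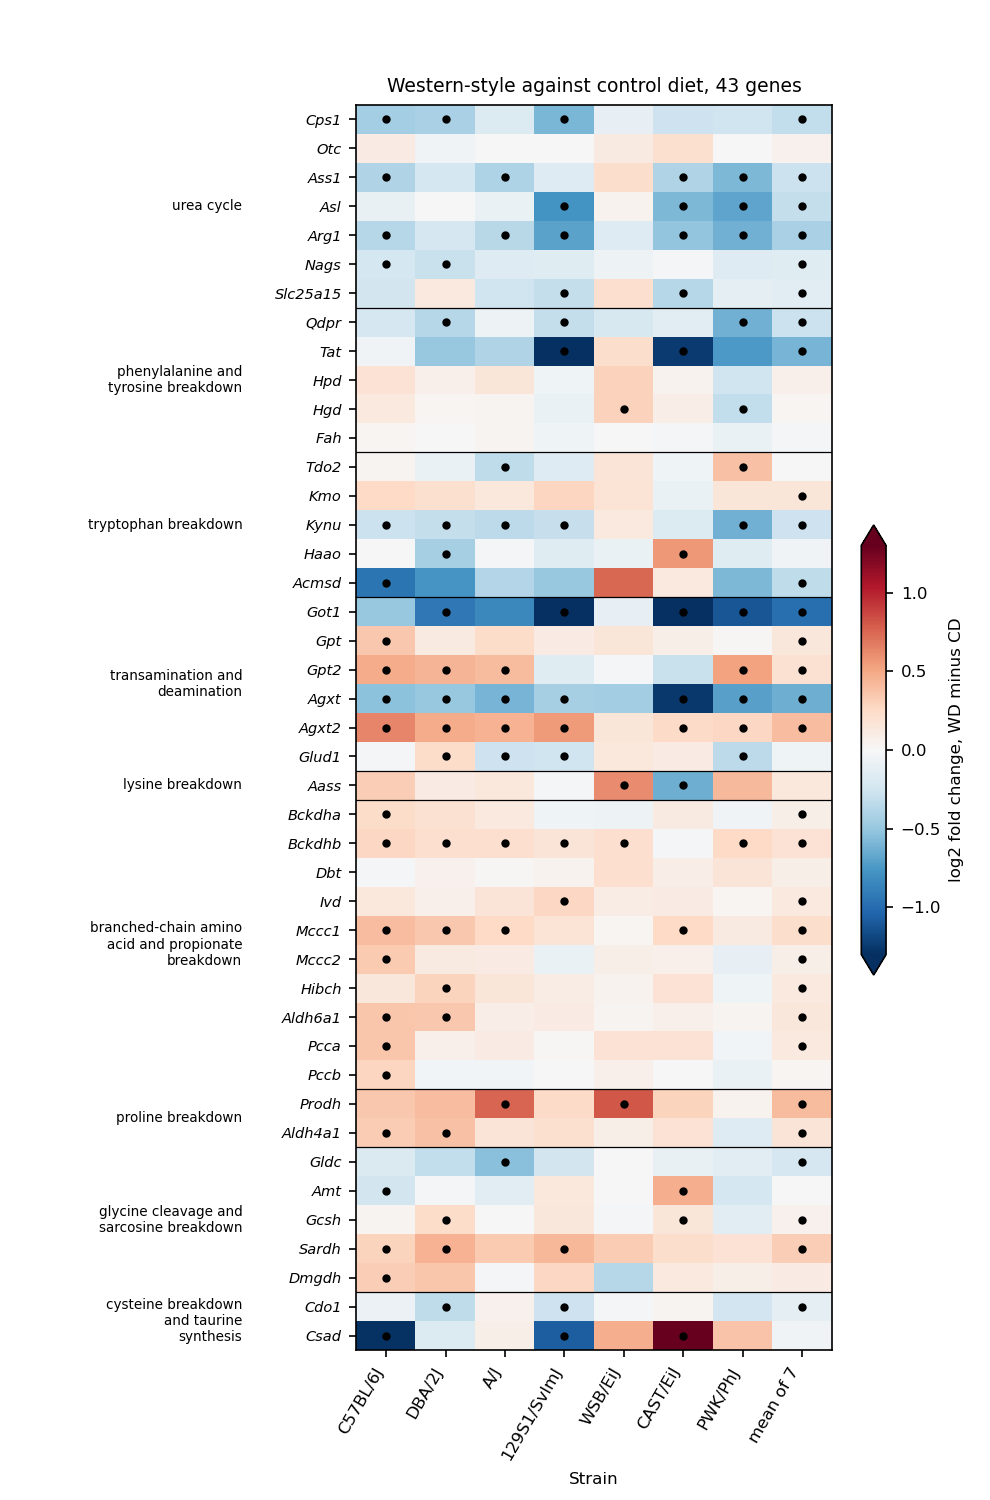
Log2 fold change on WD against CD for the 43 genes (rows, grouped by role) in each strain and in the mean of the 7 strains (columns). Red is higher and blue lower on WD, colours are saturated beyond 1.3 in either direction, and a black dot marks an adjusted p below 0.05. Every dot in the urea cycle rows is on blue and the WSB/EiJ column has none there, and every dot in the rows for branched-chain amino acids is on red.

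The urea cycle genes fell or did not pass the test. In the mean over strains, 6 of 7 fell, Arg1 the most, where 24.5% of all genes fell. Of the 49 tests of a urea cycle gene within a strain, 0 were called up by limma-voom, edgeR or DESeq2, and 1 had an unadjusted p under 0.05 in that direction by each tool. Over all genes, limma-voom called 4.39% (A/J) to 15.1% (PWK/PhJ) up within a strain. Under 5 alternatives, upper-quartile factors among them, Otc was called up in CAST/EiJ (log2 fold change 0.21, SE 0.08, adjusted p = 0.0604 in the main model and 0.0242 with upper-quartile factors). Cps1, which makes carbamoyl phosphate from ammonia, fell by 0.32 on the log2 scale (SE 0.06, adjusted p = 1.26e-06), Ass1, which joins citrulline and aspartate, by 0.28 (SE 0.04, adjusted p = 1.45e-07), and Asl, which splits argininosuccinate, by 0.31 (SE 0.05, adjusted p = 5.6e-08). Nags, which makes the activator of Cps1, fell by 0.16 (adjusted p = 1.58e-06) and Slc25a15, the ornithine carrier, by 0.13 (adjusted p = 0.00907). Otc, which makes citrulline inside the mitochondrion, was at 0.05 (SE 0.03, adjusted p = 0.177).

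Arg1 (chr10:24915221-24927484) cleaves arginine to urea and ornithine and was called down in 5 strains. In 129S1/SvImJ its level was 1245, 1462 and 1540 CPM on CD (lowest, median and highest mouse) and 775, 872 and 1014 CPM on WD. Every WD mouse of this strain therefore lay below every CD mouse, and Arg1 fell by 0.70 on the log2 scale (SE 0.09, adjusted p = 1.19e-09). In PWK/PhJ the values were 1149, 1167 and 1433 CPM on CD and 718, 799 and 938 CPM on WD, again without overlap, with a log2 fold change of -0.62 (SE 0.09, adjusted p = 9.76e-09). CAST/EiJ had the highest level, with 1909 CPM ± 265 (SD, n = 7) on CD and 1340 ± 180 (n = 8) on WD (log2 fold change -0.51, adjusted p = 1.22e-06). In WSB/EiJ the means were 1393 ± 140 and 1246 ± 138 CPM (n = 6 and 6, log2 fold change -0.16, adjusted p = 0.283), and in DBA/2J 992 ± 77.8 and 853 ± 70.8 CPM (n = 6 and 7, log2 fold change -0.22, adjusted p = 0.0596). The ranges of both diets overlapped in these strains.

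The other urea cycle genes fell in different strains. Asl fell in 129S1/SvImJ, from 501 CPM ± 72.3 (n = 7) to 290 ± 27.6 (n = 6), a log2 fold change of -0.78 (SE 0.13, adjusted p = 1.63e-06) with no overlap, and also in PWK/PhJ (-0.68) and CAST/EiJ (-0.58). In DBA/2J, Asl was 231 CPM ± 20.4 on CD and 233 ± 30.7 on WD (log2 fold change 0.01, adjusted p = 0.983). Ass1 fell in PWK/PhJ, from 2118 CPM ± 180 (n = 6) to 1418 ± 158 (n = 7), without overlap (log2 fold change -0.58, adjusted p = 4.66e-05), whereas it was 2937 ± 403 and 3429 ± 355 CPM in WSB/EiJ (log2 fold change 0.23, adjusted p = 0.281). Cps1 fell in 129S1/SvImJ, DBA/2J and C57BL/6J. The C57BL/6J call rested on cohort 1, where the difference of the means was -0.87 (3 CD and 5 WD mice), against 0.15 in cohort 2 (5 and 3 mice).

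Among the genes of phenylalanine and tyrosine breakdown, 2 of 5 fell in the mean over strains, against 24.5% of all genes. Qdpr, which regenerates the cofactor of phenylalanine hydroxylase, fell by 0.28 (SE 0.04, adjusted p = 1.21e-08) and was called in DBA/2J, 129S1/SvImJ and PWK/PhJ. Tat, the first and rate-limiting enzyme of tyrosine breakdown and a classical glucocorticoid-induced gene, fell by 0.61 (SE 0.12, adjusted p = 8.4e-06). In 129S1/SvImJ, Tat was at 855, 1442 and 1926 CPM on CD and at 294, 392 and 932 CPM on WD, so that the highest WD mouse only just reached the CD range (log2 fold change -1.57, SE 0.31, adjusted p = 4.28e-05). In CAST/EiJ the CD mice ranged from 917 to 8738 CPM with a median of 3113, and the WD mice from 817 to 1626 CPM with a median of 1061 (log2 fold change -1.25, SE 0.30, adjusted p = 0.00112). This call was lost in a fit of CAST/EiJ alone (adjusted p = 0.054). The CAST/EiJ difference was -1.88 within cohort 4 (4 and 3 mice) and -0.91 within cohort 3 (2 and 2 mice), but 0.00 to 2 decimals within cohort 1 (1 and 3 mice). Downstream, Hgd, homogentisate dioxygenase, rose in WSB/EiJ from 549 CPM ± 64.9 to 672 ± 55.3 (log2 fold change 0.30, SE 0.08, adjusted p = 0.0124) and fell in PWK/PhJ from 384 ± 12.9 to 310 ± 42.5 (log2 fold change -0.32, SE 0.08, adjusted p = 0.000815). Hpd and Fah, the enzymes before and at the end of this route, were called in no strain.

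In tryptophan breakdown by the kynurenine route, Kynu, kynureninase, had the most calls. It fell in 5 strains, and in 3 of them the diets did not overlap. The A/J call was lost without A/J CD replicate 1 (adjusted p = 0.206), WD replicate 3 or WD replicate 4, the 129S1/SvImJ call with upper-quartile factors (adjusted p = 0.0507) and the C57BL/6J call in a fit of that strain alone (adjusted p = 0.0819). In PWK/PhJ, Kynu was at 204, 216 and 250 CPM on CD and 128, 142 and 160 CPM on WD (log2 fold change -0.62, SE 0.10, adjusted p = 2.55e-07). The log2 fold change was between -0.34 and -0.28 in C57BL/6J, DBA/2J, A/J and 129S1/SvImJ, -0.17 in CAST/EiJ (adjusted p = 0.176) and 0.13 in WSB/EiJ (adjusted p = 0.521). Tdo2, which opens the tryptophan ring in hepatocytes, rose in PWK/PhJ from 1270 CPM ± 207 (n = 6) to 1656 ± 296 (n = 7), with a log2 fold change of 0.38 (adjusted p = 0.00307). In A/J, Tdo2 was 1291, 1445, 1574, 1456 and 1305 CPM in the CD mice and 1001 to 1290 CPM in the 6 WD mice, so every WD mouse was lower, the highest by 1 CPM (log2 fold change -0.33, SE 0.11, adjusted p = 0.0471). This call was lost without any 1 of the 11 A/J mice other than WD replicate 1 (highest adjusted p = 0.136). Haao, which makes quinolinate, fell in DBA/2J from 595 CPM ± 63.8 to 441 ± 36.3 (log2 fold change -0.43, adjusted p = 0.0352) and rose in CAST/EiJ from 191 ± 30.9 to 281 ± 23.0 (log2 fold change 0.57, SE 0.13, adjusted p = 0.000891). Kmo rose in the mean over strains alone (log2 fold change 0.16, adjusted p = 0.00105).

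Acmsd, which diverts the route away from quinolinate and NAD, was low and variable. In C57BL/6J its level was 12.6, 23.7 and 135 CPM on CD and 7.56, 11.4 and 44.4 CPM on WD, a log2 fold change of -0.95 (SE 0.26, adjusted p = 0.004). The highest CD value belonged to C57BL/6J CD replicate 2, and the other CD mice did not exceed 28.1 CPM. Without both libraries that stood apart, the log2 fold change was -0.85 (adjusted p = 0.00161), and in a fit of C57BL/6J alone it did not pass (-0.94, adjusted p = 0.15). In WSB/EiJ, Acmsd was 24.7 CPM ± 13.5 on CD and 38.7 ± 9.94 on WD (log2 fold change 0.75, SE 0.29, adjusted p = 0.102).

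The aminotransferases moved in opposite directions. Got1 and Agxt fell in the mean over strains, and Agxt2, Gpt and Gpt2 rose. Got1 (chr19:43499752-43524605), the cytosolic aspartate aminotransferase, had the largest change of the 43 genes in this mean, with a log2 fold change of -0.98 (SE 0.10, adjusted p = 4.55e-13), or 0.507-fold. In CAST/EiJ, Got1 was at 205, 652 and 1516 CPM on CD and at 112, 135 and 239 CPM on WD (log2 fold change -1.94, SE 0.26, adjusted p = 2.21e-08). The CAST/EiJ CD mice were widely spread, and only the lowest of them lay within the WD range. Within cohorts 1, 3 and 4 the CAST/EiJ difference was -1.30, -1.67 and -2.09. In 129S1/SvImJ, Got1 fell from 332 CPM ± 51.8 to 123 ± 28.4 (log2 fold change -1.44, adjusted p = 3.13e-05) and in PWK/PhJ from 247 ± 36.5 to 117 ± 34.9 (log2 fold change -1.11, adjusted p = 0.000979), without overlap in both strains. In WSB/EiJ the means were 569 ± 133 and 527 ± 115 CPM (n = 6 and 6, log2 fold change -0.11, SE 0.30, adjusted p = 0.9).

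Agxt (chr1:93135240-93145421) is the peroxisomal enzyme that turns glyoxylate into glycine. It fell in 6 strains. In CAST/EiJ it was at 84.5, 168 and 261 CPM on CD and at 56.8, 66.9 and 76.7 CPM on WD, so that every WD mouse was below every CD mouse (log2 fold change -1.26, SE 0.15, adjusted p = 2.55e-10). In A/J the CD mice had 316, 221, 236, 223 and 206 CPM and the WD mice 142 to 185 CPM with a median of 149.5, again without overlap (log2 fold change -0.60, SE 0.18, adjusted p = 0.0177). Without the highest of these, A/J CD replicate 1, the A/J call was lost (-0.49, adjusted p = 0.101), as was that of 129S1/SvImJ with upper-quartile factors (adjusted p = 0.0839) and that of C57BL/6J in a fit of its own (adjusted p = 0.0749). In WSB/EiJ, where Agxt did not pass the test (log2 fold change -0.45, SE 0.17, adjusted p = 0.0832), the WD mice at 185 to 251 CPM were nonetheless all below the CD mice at 256 to 333 CPM.

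Agxt2 (chr15:10358532-10410153) is the mitochondrial counterpart, which also degrades methylarginines. It rose in 6 strains, by 0.40 in the mean over strains (SE 0.03, adjusted p = 2.27e-21). In A/J, Agxt2 was 96.2, 90.3, 85.0, 84.1 and 80.0 CPM in the CD mice and 109, 118 and 129 CPM (lowest, median, highest) in the WD mice (log2 fold change 0.45, SE 0.08, adjusted p = 6.77e-05). In 129S1/SvImJ it rose from 134 CPM ± 9.46 to 197 ± 7.20 (log2 fold change 0.56, adjusted p = 2.56e-08), in DBA/2J from 133 ± 6.43 to 187 ± 12.3 (log2 fold change 0.48, adjusted p = 9.2e-07), and in C57BL/6J from 84.0 ± 9.55 to 131 ± 18.8 (log2 fold change 0.63, SE 0.07, adjusted p = 7.83e-12). Only in C57BL/6J, among these 4 strains, did the diets overlap. WSB/EiJ had 139 ± 5.88 and 156 ± 15.8 CPM (log2 fold change 0.16, adjusted p = 0.209). Agxt2 shares 155 bases of exon with a read-through gene, Gm21973, on the same strand.

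**Figure D2:**
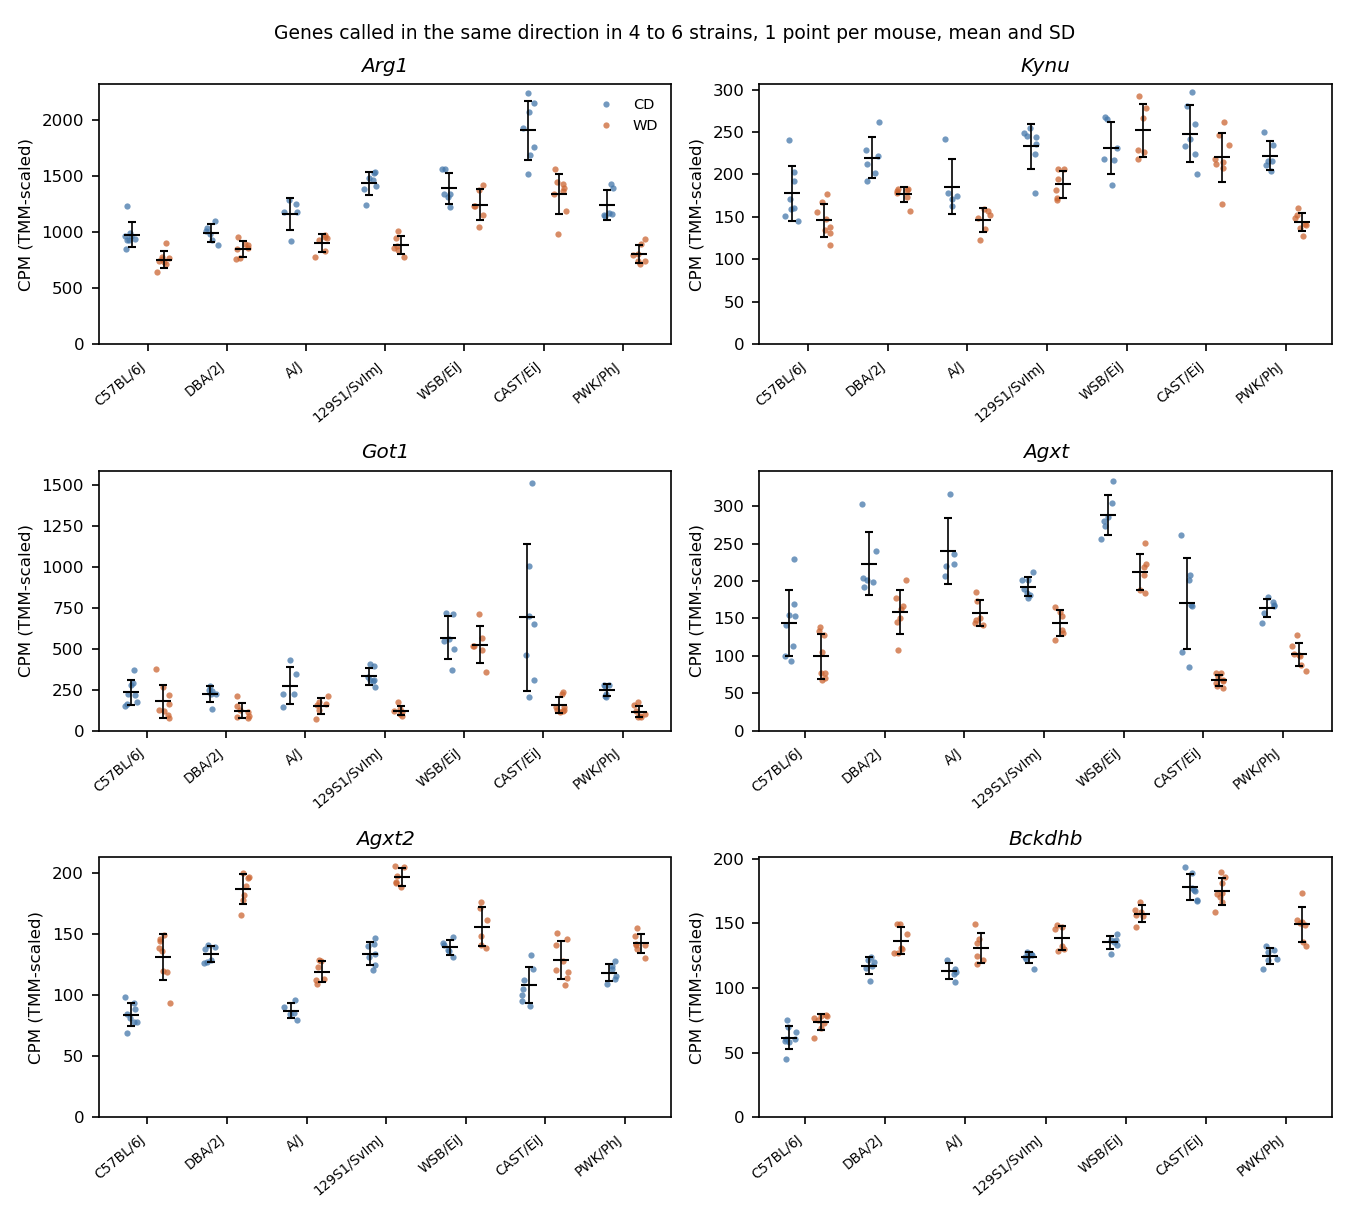
Level in CPM (vertical axis, linear, from 0) of Arg1, Kynu, Got1, Agxt, Agxt2 and Bckdhb in each mouse, by strain and diet. Points are mice, blue on CD and orange on WD, and the bars are the mean and SD of each group of 5 to 8 mice. Agxt is lower on WD in all 7 strains by its mean, Agxt2 higher, and Bckdhb on CD is lowest in C57BL/6J.

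Gpt2, the mitochondrial alanine aminotransferase, rose in C57BL/6J, DBA/2J, A/J and PWK/PhJ by 0.41 to 0.53. The A/J call was lost with cohort as a covariate (adjusted p = 0.0714) and with genes of any count (0.117). It was also lost without any 1 A/J mouse other than CD replicate 2, CD replicate 3 or WD replicate 5 (highest adjusted p = 0.108). In PWK/PhJ, Gpt2 was at 342, 419 and 452 CPM on CD and at 496, 583 and 668 CPM on WD, without overlap (log2 fold change 0.53, adjusted p = 0.00041). In CAST/EiJ the means were 773 ± 206 and 620 ± 98.4 CPM (log2 fold change -0.29, adjusted p = 0.0595). Gpt, the cytosolic form, was called in C57BL/6J alone, by 0.35 on the log2 scale. Glud1, glutamate dehydrogenase, which releases ammonia, rose in DBA/2J from 1151 CPM ± 93.9 to 1355 ± 100 (log2 fold change 0.24, SE 0.07, adjusted p = 0.0169). Glud1 fell in PWK/PhJ from 1109 ± 33.8 to 876 ± 65.9 CPM, without overlap (log2 fold change -0.34, adjusted p = 0.000152), in A/J (-0.27) and in 129S1/SvImJ (-0.26). The A/J call of Glud1 was lost with cohort as a covariate (adjusted p = 0.0691) and without A/J CD replicate 3 (0.127), CD replicate 4 or WD replicate 3.

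The genes of branched-chain amino acid and propionate breakdown rose or did not pass the test. Of the 70 tests within a strain, 0 were called down by limma-voom, edgeR or DESeq2, also at an unadjusted p under 0.05. Over all genes, limma-voom called 3.97% (WSB/EiJ) to 14.5% (PWK/PhJ) down within a strain. The increases were small. In the mean over strains 8 of 10 rose, against 27.1% of all genes, with a median log2 fold change of 0.12 over the 10 and 0.01 over all genes. C57BL/6J had 7 of 10 up (14.3% of all genes) and DBA/2J 4 (10.2%). A/J (4.39%) and 129S1/SvImJ (14.5%) had 2 each, and WSB/EiJ (4.97%), CAST/EiJ (9.77%) and PWK/PhJ (15.1%) 1 each. In a fit of C57BL/6J alone, its calls of Bckdha (adjusted p = 0.121), Pcca (0.0573), Pccb (0.1) and Mccc2 (0.0516) were lost. Without the libraries that stood apart, the C57BL/6J calls held, and Hibch (0.0464) and Ivd (0.0426) were also called. Bckdhb (chr9:83925145-84124240), a subunit of the branched-chain ketoacid dehydrogenase, rose in 6 strains by 0.17 to 0.27, although the A/J call was lost with cohort as a covariate (adjusted p = 0.0783) and without A/J CD replicate 4 or 5 or WD replicate 1, 2 or 4 (highest adjusted p = 0.113). In WSB/EiJ it was at 126, 136 and 142 CPM on CD and at 147, 158 and 167 CPM on WD (log2 fold change 0.22, SE 0.07, adjusted p = 0.02). In CAST/EiJ the level was 178 ± 9.99 and 175 ± 10.3 CPM (n = 7 and 8, log2 fold change -0.03, adjusted p = 0.821). Bckdha, the partner subunit, passed in C57BL/6J only, and Dbt, the core of the complex, in no strain (log2 fold change in the mean over strains 0.08, adjusted p = 0.0561). Bckdha shares 1171 of its 1899 exon bases with B3gnt8 on the opposite strand. The strand setting of the counting is not given, so part of the Bckdha count is uncertain. Mccc1, of the leucine route, rose the most of the 10 in the mean over strains (log2 fold change 0.23, SE 0.03, adjusted p = 2.51e-10). In DBA/2J, Mccc1 was at 29.1, 32.4 and 36.1 CPM on CD and at 37.3, 40.8 and 43.9 CPM on WD, without overlap. Pcca and Pccb, the subunits of propionyl-CoA carboxylase, were called up in C57BL/6J, by 0.36 and 0.28.

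Both genes of proline breakdown rose in the mean over strains, where 27.1% of all genes rose, but no strain had both called. Prodh, the first enzyme of this route, rose by 0.41 in the mean over strains (SE 0.06, adjusted p = 2.4e-08), and Aldh4a1, the second, by 0.17 (adjusted p = 6.03e-06). In WSB/EiJ, Prodh was at 106, 136 and 186 CPM on CD and at 201, 240 and 264 CPM on WD, the largest increase of the 43 genes in that strain and without overlap (log2 fold change 0.80, SE 0.17, adjusted p = 0.000557). In A/J the CD mice had 72.8, 84.1, 118, 86.3 and 76.6 CPM and the WD mice 95.1, 152 and 179 CPM (lowest, median and highest), with a log2 fold change of 0.76 (SE 0.18, adjusted p = 0.00239). PWK/PhJ was at 72.9 ± 14.7 and 74.8 ± 13.5 CPM (log2 fold change 0.04, adjusted p = 0.878). Aldh4a1 shares 1595 bases with the read-through gene Gm21969, so part of its count is uncertain.

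Of the genes of glycine cleavage and of sarcosine breakdown, Gldc fell and Gcsh and Sardh rose in the mean over strains. Gldc, the decarboxylase of the cleavage system, fell in the mean over strains (log2 fold change -0.22, SE 0.05, adjusted p = 0.000125). It was called in A/J alone, where the CD mice had 232, 205, 205, 190 and 169 CPM and the WD mice 98.3, 136 and 199 CPM at the lowest, median and highest (log2 fold change -0.55, SE 0.14, adjusted p = 0.00695). Amt, the aminomethyltransferase of the same complex, fell in C57BL/6J (-0.24 on the log2 scale, adjusted p = 0.0473), but the adjusted p was 0.0823 without the libraries that stood apart and 0.0526 by edgeR. Amt rose in CAST/EiJ (0.47, adjusted p = 0.000299), where the difference within cohort 1 was -0.05 and a fit of this strain alone gave an adjusted p of 0.0572. Gcsh, the carrier protein of the complex, rose in DBA/2J (0.24, adjusted p = 0.00284) and CAST/EiJ (0.16, adjusted p = 0.0392), and by 0.06 in the mean over strains (adjusted p = 0.0258). The CAST/EiJ call of Gcsh was lost with cohort as a covariate (adjusted p = 0.121). Sardh, sarcosine dehydrogenase, rose by 0.32 in the mean over strains (SE 0.04, adjusted p = 1.19e-09). In DBA/2J, Sardh was at 346, 380 and 419 CPM on CD and at 479, 509 and 569 CPM on WD (log2 fold change 0.45, adjusted p = 0.00243), and in 129S1/SvImJ at 414, 482 and 574 CPM and at 604, 646 and 685 CPM (log2 fold change 0.43, adjusted p = 0.00301). The diets did not overlap in these strains.

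Aass, the first enzyme of lysine breakdown, was not called in the mean over strains (log2 fold change 0.13, adjusted p = 0.0923). It rose in WSB/EiJ, from 358, 460 and 631 CPM on CD to 560, 743 and 899 CPM on WD (log2 fold change 0.62, SE 0.19, adjusted p = 0.0247), a call that was lost when genes of any count were kept (adjusted p = 0.18). In CAST/EiJ it fell, by 0.63 on the log2 scale (SE 0.18, adjusted p = 0.00534, or 0.166 in a fit of this strain alone), and here the CD mice were split: Aass was 634, 662 and 599 CPM in replicates 1, 2 and 4, and 1805, 2196, 2002 and 2194 CPM in replicates 3, 5, 6 and 7. The WD mice of CAST/EiJ ran from 615 to 1010 CPM, overlapping the lower set and below the higher. Within cohort 1 the CAST/EiJ difference was 0.17 (1 and 3 mice), within cohort 3 -0.43 and within cohort 4 -0.82. Tat was also lowest in CAST/EiJ CD replicates 1, 2 and 4, at 1352, 1187 and 917 CPM, against 3113 to 8738 CPM in the other 4.

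Csad, which makes hypotaurine on the way to taurine, had the strongest opposite responses. In C57BL/6J it was at 159, 356 and 440 CPM on CD and at 87.4, 112 and 278 CPM on WD (a log2 change of -1.29, SE 0.22, adjusted p = 4.77e-06), and at -1.57 (adjusted p = 1.77e-08) without the libraries that stood apart, which held the lowest CD value and the highest WD value. In 129S1/SvImJ it fell from 130 CPM ± 46.9 to 59.2 ± 12.8 (log2 fold change -1.07, adjusted p = 0.000302). In CAST/EiJ it rose, from 79.2, 102 and 126 CPM to 170, 242 and 431 CPM, without overlap (log2 fold change 1.33, SE 0.23, adjusted p = 5.66e-06), and by 1.96, 1.20 and 0.99 within cohorts 1, 3 and 4. Csad shares 278 bases of exon with Zfp740 on the opposite strand, and the strand setting of the counting is not given in the sources used here. Cdo1, which starts cysteine breakdown, fell in DBA/2J (log2 fold change -0.33, adjusted p = 0.0159) and 129S1/SvImJ (-0.27, adjusted p = 0.043). With genes of any count, both Cdo1 calls were lost (adjusted p = 0.0909 and 0.0503). The 129S1/SvImJ call was also lost with upper-quartile factors (0.129) and with at least 10 counts in every mouse (0.0643). A further 6 members were called up in 1 or more strains and down in others, namely Haao, Hgd, Tdo2, Glud1, Aass and Amt. Of these, Tdo2, Glud1, Aass and Amt lost calls under alternatives given above, and Hgd its WSB/EiJ call in a fit of that strain alone (adjusted p = 0.0507).

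**Figure D3:**
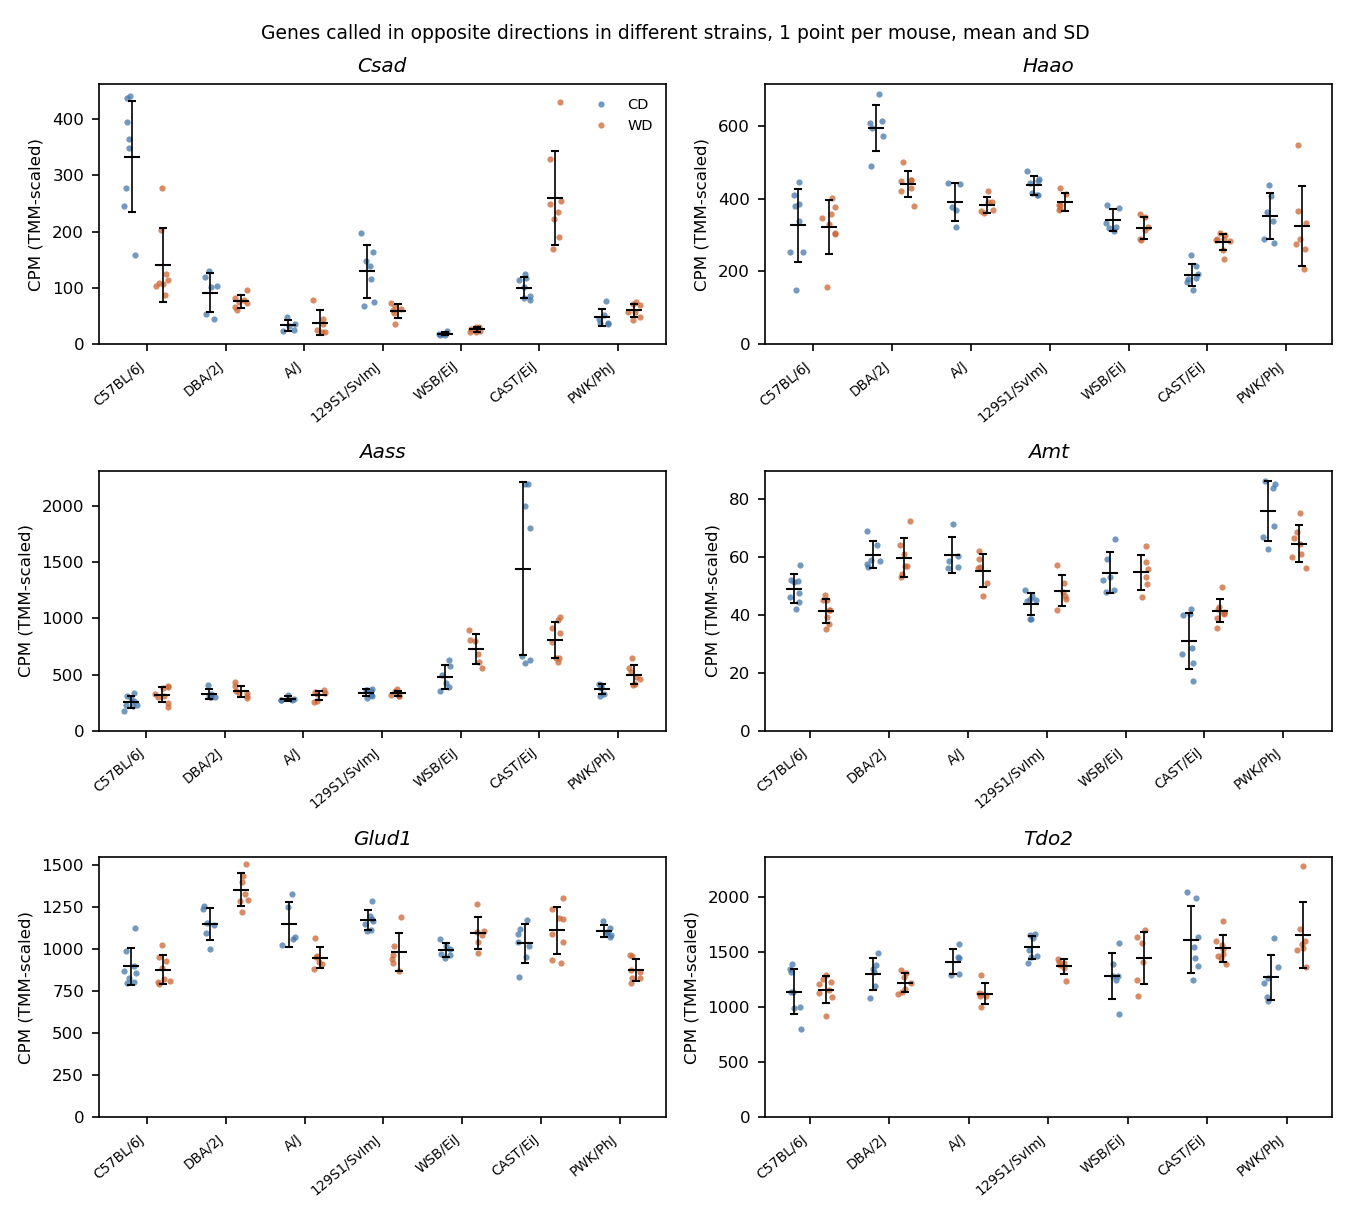
Level in CPM (vertical axis, linear, from 0) of Csad, Haao, Aass, Amt, Glud1 and Tdo2 in each mouse, by strain and diet, with the mean and SD of each group of 5 to 8 mice. Csad is lower on WD in C57BL/6J and higher in CAST/EiJ, and the CAST/EiJ CD points of Aass lie apart at 599 to 662 and 1805 to 2196 CPM.

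Whether the diet effect itself differed between strains was tested with an F test over all 7, which called 28 of the 43, where 37.5% of all genes were called. Csad had the lowest adjusted p (3.61e-09), followed by Glud1 (3.32e-06), Gpt2 (1.39e-05) and Asl (3.41e-05). Sardh (adjusted p = 0.713), Fah (0.932) and Dbt (0.683) were among the 15 that did not pass. The diet effect of each strain was then set against the mean of the other 6. In PWK/PhJ it differed for 11 members, where 16.3% of all genes were called, and 9 of the 11 were lower, among them Hgd by 0.40 (adjusted p = 0.000386) and Aldh4a1 by 0.39 (adjusted p = 0.000992). In CAST/EiJ it differed for 8 (14.5% of all genes), with Got1 lower by 1.13 (SE 0.29), Aass lower by 0.90 (SE 0.19), Csad higher by 1.61 (SE 0.25) and Haao higher by 0.71 (SE 0.15).

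In 129S1/SvImJ all 5 members called were lower (6.28% of all genes), Asl by 0.55, Arg1 by 0.33, Tat by 1.12, Gpt2 by 0.41 and Csad by 1.20. In WSB/EiJ 4 members were called (0.947% of all genes): Ass1 was higher by 0.59 (SE 0.13, adjusted p = 0.0104), Kynu by 0.46 (SE 0.11, adjusted p = 0.0134) and Acmsd by 1.26 (SE 0.32, adjusted p = 0.028), and Dmgdh was lower by 0.56. In C57BL/6J 4 were called (4.69% of all genes), Agxt2, Mccc2 and Pccb higher and Csad lower, and 10 without the libraries that stood apart. In DBA/2J 2 were called (7.77% of all genes), Glud1 and Gcsh, both higher, and without the same C57BL/6J libraries 4. In A/J 0 were called by limma-voom, where 4 had an unadjusted p under 0.05 (0.466% of all genes called), and 0 by edgeR and DESeq2.

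The level on CD was compared between strains to see how the genes stood without WD. All 43 differed by an F test over the CD groups, where 93.7% of all genes did. In C57BL/6J, 31 of the 43 were lower than in the mean of the other 6 strains and 1 was higher, while 28.4% of all genes were lower and 29.5% higher. The median log2 difference of the 43 was -0.36, against -0.01 over all genes. Without the libraries that stood apart, 31 were again lower and 1 higher, 30 of the 32 being the same genes: Fah and Pccb were lost, and Ass1 and Acmsd were gained. In WSB/EiJ, 28 were higher and 1 lower (25.4% and 23.8% of all genes), with a median of 0.295. In CAST/EiJ, 24 were higher and 11 lower (32.4% and 31.5%), with a median of 0.21. Among the other strains, DBA/2J had 9 higher and 10 lower (22.9% and 19.4%), A/J 5 and 12 (20.5% and 16.2%), 129S1/SvImJ 15 and 7 (23.6% and 20.6%), and PWK/PhJ 6 and 16 (30.2% and 28.4%). The summed hepatocyte markers on CD had a median of 133700 CPM in C57BL/6J, within the 115600 to 216200 CPM of the other strains. Markers of hepatocytes around the central vein had a median of 7914 CPM in C57BL/6J (range 3136 to 11710), below the medians of 9409 to 13660 CPM elsewhere. Those around the portal vein had medians of 4079 CPM in C57BL/6J, 7398 in WSB/EiJ, 7111 in CAST/EiJ and 3939 to 5409 in the rest. The part of cell content in these levels was not tested.

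**Figure D4:**
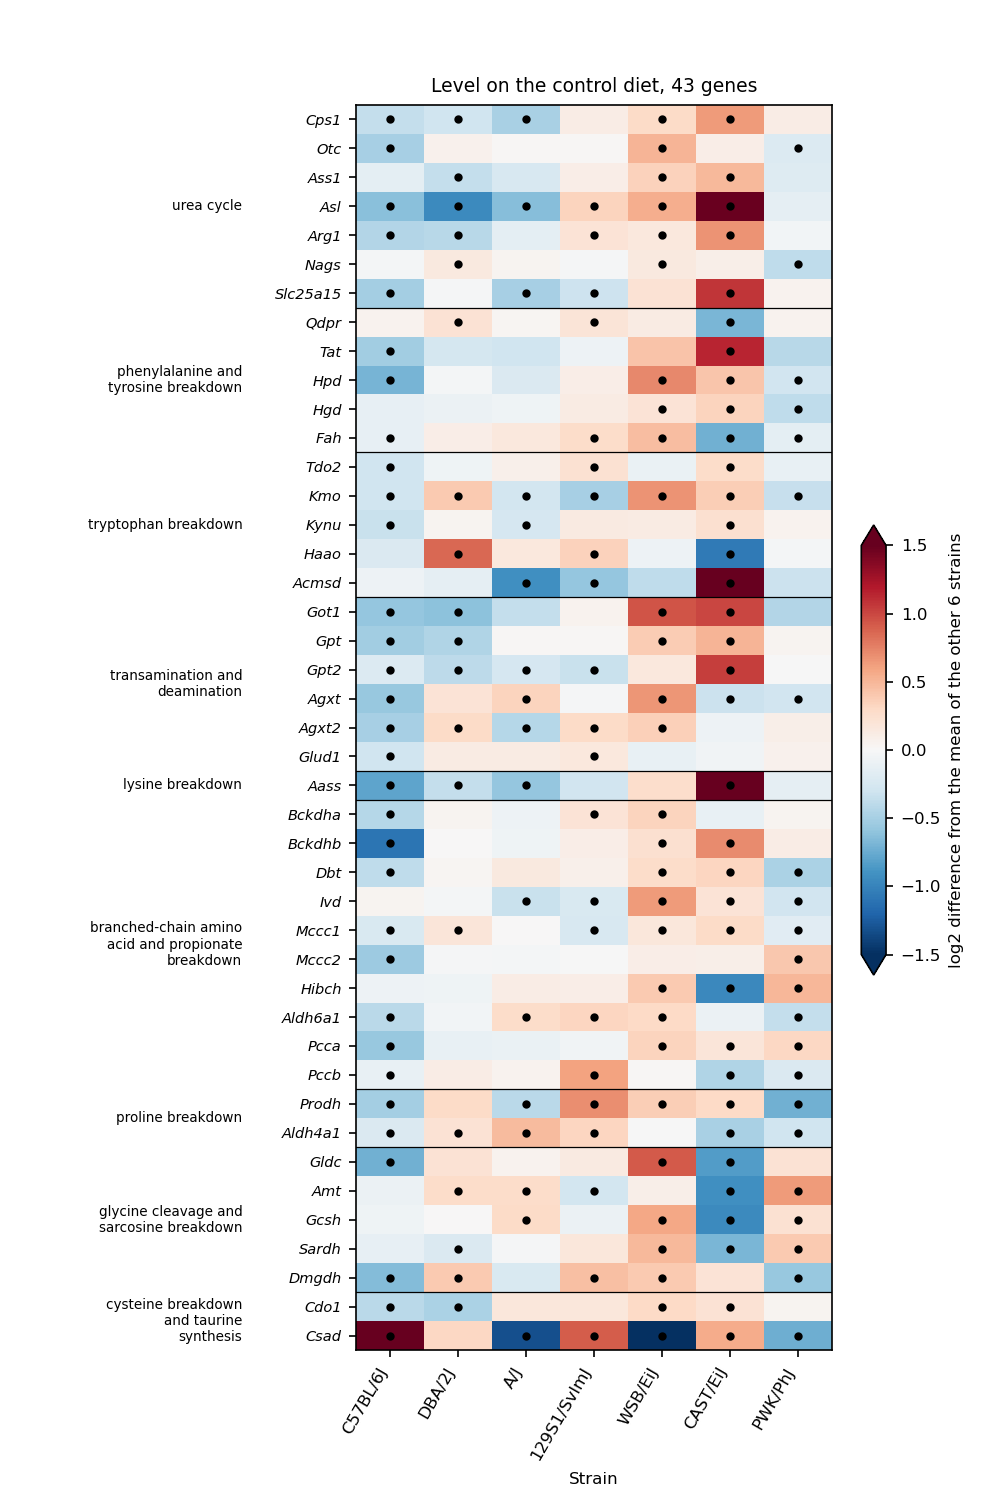
Log2 difference of the level on CD in each strain (columns) from the mean of the other 6, for the 43 genes (rows, grouped by role). Red is higher and blue lower, colours are saturated beyond 1.5 in either direction, and a black dot marks an adjusted p below 0.05. The C57BL/6J column is blue in 31 called rows and red in 1, Csad, and the WSB/EiJ column is red in 28 called rows.

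Csad (chr15:102176999-102204724) had the widest range on CD. C57BL/6J was highest at 333 CPM ± 98.9 (n = 8), then 129S1/SvImJ at 130 ± 46.9 (n = 7), CAST/EiJ at 101 ± 19.0 (n = 7), DBA/2J at 91.8 ± 34.7 (n = 6), PWK/PhJ at 47.5 ± 15.3 (n = 6), A/J at 33.7 ± 9.97 (n = 5) and WSB/EiJ at 18.9 ± 2.96 (n = 6). The means of 129S1/SvImJ, CAST/EiJ and DBA/2J differed by less than the SD of 129S1/SvImJ, and those of PWK/PhJ and A/J by less than the SD of PWK/PhJ, whereas all 8 C57BL/6J mice were above every mouse of CAST/EiJ, DBA/2J, PWK/PhJ, A/J and WSB/EiJ. Without the C57BL/6J libraries that stood apart, the C57BL/6J excess over the other strains was 2.67 on the log2 scale, against 2.52 with them.

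In CAST/EiJ on CD, Acmsd, Aass and Asl stood highest above the other strains, and Haao, Hibch and Gcsh furthest below. Acmsd was 123 CPM ± 37.7 (n = 7) against group means of 16.7 to 36.01 CPM in the other strains, a log2 difference of 2.42 (SE 0.20, adjusted p = 1.85e-18). Aass was higher by 1.90 (SE 0.14), Asl by 1.49 (SE 0.10, adjusted p = 2.85e-24), Slc25a15 by 1.07 (SE 0.09) and Gpt2 by 1.04 (SE 0.09, adjusted p = 1.49e-17). Haao was lower by 1.06 (SE 0.11, adjusted p = 5.78e-15), Gcsh by 0.95 (SE 0.05, adjusted p = 8.35e-33), Hibch, of valine breakdown, by 0.97 (SE 0.06), and Gldc by 0.84 (SE 0.10). CAST/EiJ also had the largest share of unmapped reads, and its part in the lower levels was not tested.

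Bckdhb on CD was 61.7 CPM ± 8.97 in C57BL/6J (n = 8, range 44.8 to 74.97) and between 113 and 178 CPM in the means of the other strains, the lowest mouse of which had 105 CPM. No mouse of another strain on CD was therefore as low as any C57BL/6J mouse, and the log2 difference was -1.09 (SE 0.04, adjusted p = 3.74e-38). Bckdha and Dbt, of the same complex, were also called lower in C57BL/6J, although Bckdha shares much of its exon with B3gnt8. Asl was lowest in DBA/2J, at 231 CPM ± 20.4 on CD, and 4.27-fold higher in CAST/EiJ. WSB/EiJ had the highest mean level of Agxt (289 CPM ± 26.8), Gldc (339 ± 65.5) and Hpd, and C57BL/6J the lowest of Agxt (144 ± 44.1).

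Levels of different genes were compared per length, as CPM divided by the kilobases of exon in the annotation, averaged over the strain means on CD. Ass1 was highest at 1011, followed by Cdo1 (918), Hpd (888), Cps1 (729), Tat (675) and Arg1 (585). Tdo2, at 352, led the tryptophan route, and Acmsd, at 13.7, was its lowest. Within the urea cycle, Nags (16.9) and Slc25a15 (64.6) were far below Ass1, Cps1 and Arg1. The dehydrogenase subunits Bckdha (27.3), Bckdhb (67.6) and Dbt (27.1) were higher than Mccc1, the lowest of all at 2.66. The Bckdha value may hold reads of B3gnt8, which overlaps much of its exon. Mccc1 has 10952 annotated bases of exon, and a shorter main transcript would give a higher value per length.

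**Figure D5:**
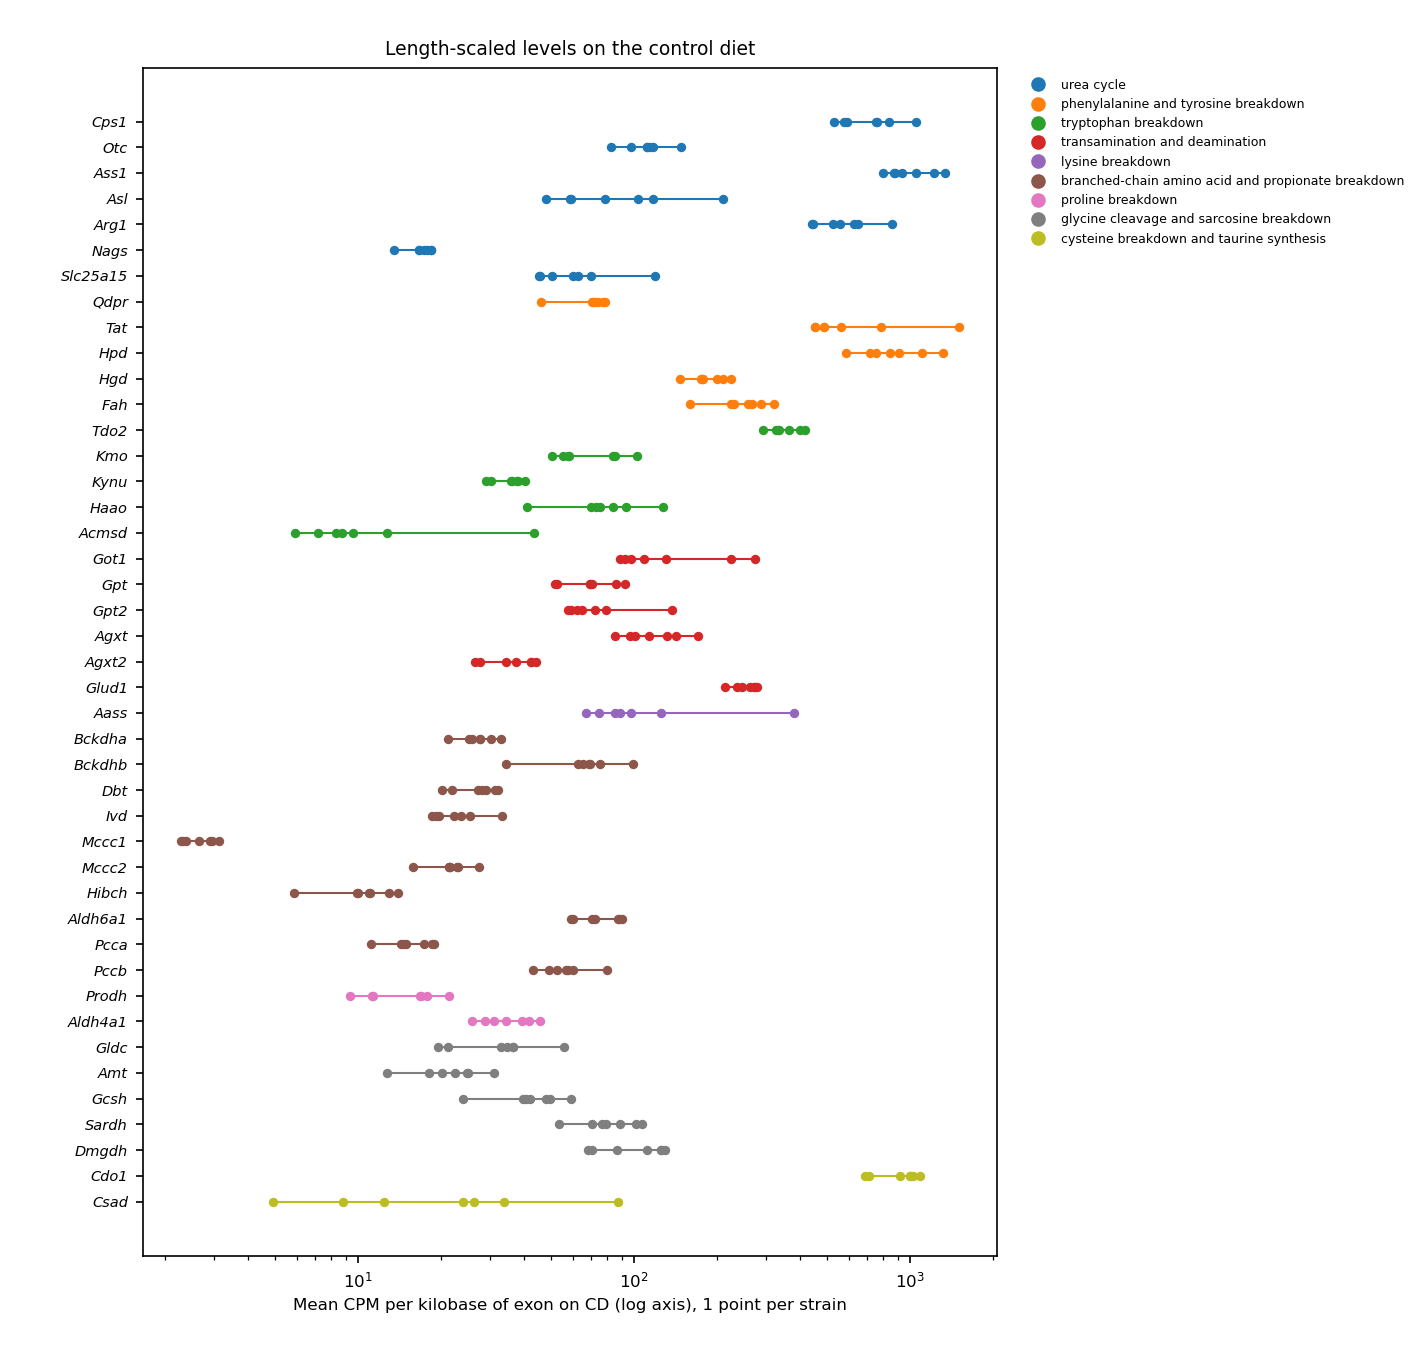
Level on CD per kilobase of exon (horizontal axis, logarithmic) of the 43 genes (rows, coloured by role), with 1 point for the mean of each of the 7 strains and a line over their range. Ass1, Cdo1, Hpd and Cps1 are the highest by the mean of the strains, Mccc1 is lowest, and Csad, Acmsd and Aass span the widest ranges.

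Other genes of the same routes were described from lists that shared no gene with the 43. Gls2 stood in the lists of further breakdown genes and of ammonia handling, and Slc38a3 and Slc7a2 in those of ammonia handling and of transporters. Gls2, Etnppl, Hal, Sds, Sdsl and Uroc1 were also among the markers of hepatocytes around the portal vein. Oat, Glul and Slc1a2 were also among the markers of hepatocytes around the central vein. The counts of these lists in the mean over strains stand against 27.1% of all genes up and 24.5% down. Of 41 further amino acid breakdown genes tested, 17 rose and 14 fell in the mean over strains, with a median log2 fold change of 0.02. Etnppl, which degrades phosphoethanolamine, fell most (log2 fold change -0.81, adjusted p = 2.78e-08), Asrgl1, an asparaginase, rose most (0.56, adjusted p = 4.12e-18), and Gcat, of threonine breakdown, fell (-0.51, adjusted p = 7.32e-20). In PWK/PhJ 15 of the 41 fell and 1 rose (14.5% and 15.1% of all genes). In CAST/EiJ 5 fell and 13 rose (9.73% and 9.77% of all genes). Of 9 partners of ammonia handling, 3 rose and 2 fell, shares near those of all genes: Rhbg, an ammonia channel of the hepatocytes around the central vein, rose (0.80, adjusted p = 3.38e-09) and Gls2, the liver glutaminase, fell (-0.45, adjusted p = 1.85e-12), while Arg2 rose by 0.44 (adjusted p = 0.0395). Of 14 amino acid transporters, 7 fell and 2 rose, with Slc38a2 (-0.64, adjusted p = 3.85e-10), Slc25a22 (-0.61) and Slc3a1 (-0.47) changing most.

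Of 8 genes of serine, glycine, asparagine and proline synthesis, 2 rose and 1 fell in the mean over strains, namely Pycr1, of proline synthesis (0.30, adjusted p = 0.0146), Shmt2, which interconverts serine and glycine in the mitochondrion (0.25, adjusted p = 2.72e-08) and its cytosolic form Shmt1 (-0.16, adjusted p = 0.00534). In C57BL/6J, with both libraries that stood apart included, 5 of the 8 fell (11.9% of all genes). Phgdh fell by 1.95 (SE 0.35, adjusted p = 1.17e-05) and Asns by 1.75 (adjusted p = 0.00026). In PWK/PhJ 4 of the 8 rose (15.1% of all genes), with Asns at 1.07 (adjusted p = 0.00192). Of 20 regulators, 4 rose and 9 fell. Ppm1k, the phosphatase that activates the branched-chain ketoacid dehydrogenase, rose in 5 strains and by 0.60 in the mean over strains (SE 0.07, adjusted p = 5.09e-12), and Bckdk, the kinase that opposes it, fell by 0.08 (adjusted p = 0.0381). Atf4, which drives amino acid synthesis genes, fell by 0.45 (adjusted p = 4.6e-17), and Cebpa, a hepatocyte transcription factor, by 0.32 (adjusted p = 3.33e-09).

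Markers of cell types moved with diet in the same livers. Their counts in the mean over strains stand against 27.1% of all genes up and 24.5% down. In the mean over strains, 7 of 10 hepatocyte markers fell and 2 rose, with a median log2 fold change of -0.28, and Alb fell by 0.58 (adjusted p = 2.37e-24). The summed hepatocyte markers in PWK/PhJ were 122000 to 149300 CPM on CD and 79610 to 104300 CPM on WD. The markers of hepatocytes around the portal vein, where urea synthesis is placed, numbered 10. Of these, 6 fell in the mean over strains, in PWK/PhJ (14.5% of all genes) and in 129S1/SvImJ (13.6%). In the mean over strains 0 rose by limma-voom, edgeR or DESeq2, also at an unadjusted p under 0.05. Their sum was 2575 to 4205 CPM on WD and 3784 to 5515 CPM on CD in PWK/PhJ, 2831 to 4037 CPM and 3425 to 5162 CPM in 129S1/SvImJ, and 5717 to 10380 CPM and 5747 to 9364 CPM in WSB/EiJ. Among these portal markers, Hal, Sds, Gls2, Etnppl, Sdsl and Uroc1 were also in the list of further breakdown genes, so both lists share values. Etnppl, Gls2, Hal and Sdsl were among the markers that fell in the mean over strains, and Sds and Uroc1 were not. Of 10 markers of hepatocytes around the central vein, 4 rose and 1 fell in the mean over strains. In PWK/PhJ 3 of them fell (14.5% of all genes), with a median log2 fold change of -0.30.

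Kupffer cell and macrophage markers rose for 7 of 10 and stellate cell and fibroblast markers for 7 of 10 in the mean over strains, and 4 of 6 cholangiocyte markers rose. In PWK/PhJ the summed stellate cell and fibroblast markers were 152 to 231 CPM on CD and 326 to 732 CPM on WD, and in WSB/EiJ 326 to 433 CPM and 305 to 521 CPM. Of 8 T, NK and B cell markers 3 rose, and of 7 endothelial markers 2 rose and 4 fell. No marker was at 0 in every mouse. The part of these cell types in the changes of the 43 genes was not tested.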

How the data were processed

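Liver RNA of 93 male mice from 7 strains on CD or WD was sequenced. Per the labels and the paper's methods, the authors mapped reads with STAR (version 2.7.1a and build GRCm38 in the submitters' processing notes) and deposited raw counts per gene without normalization, and the annotation release and strand setting are not given in the sources used here. All 93 columns were used, and 4 lines that name no gene were removed. Symbols, exon lengths and positions came from GENCODE M21 (GRCm38). Counts (40020424 to 49894856 per mouse) were analysed with edgeR 4.0.16 and limma 3.58.1 in R 4.3.3: filterByExpr with a minimum count of 10, TMM, and voom with a mean for each of 14 groups. Benjamini–Hochberg adjusted p-values are from limma over all 19110 genes unless DESeq2 1.42.0 or edgeR is named. The labels give each mouse a cohort, which the main model leaves out. The p-values rest on an estimate of the spread between mice within groups, over cohorts, that all 14 groups share. They do not measure the spread of each group alone. CPM are TMM-scaled, and single log2 values used a prior count of 2.

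The members, the lists and the tests were chosen with earlier results of these data known. Members named were, per role, the called gene with the largest change in the mean over strains, per strain up to 2 largest increases and 2 largest decreases, those called alike in 5 or more strains, those called in opposite directions, and the 5 with the widest range on CD. Other members, Bckdk, Phgdh and Asns were named after their values were seen. Alternatives were upper-quartile factors, other filters, cohort or RIN as a covariate, quality weights, separate fits, edgeR and DESeq2 tests, and left-out mice. The pipeline was tested on simulated data.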

Additional observations from a re-analysis of the deposited data

Results flagged for a closer look

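In 52 groups (the members named for a strain, on either diet), 3 mice lay further from the rest of their group than Dixon's 95% limit, where chance gives about 1 in 20 groups (2.6 of 52). Acmsd in C57BL/6J CD replicate 2 was 135 CPM (12.6 to 28.1 in the other 7 mice), in one of both libraries that stood apart over all genes. Got1 in DBA/2J CD replicate 2 was 131 CPM (227 to 273 in the other 5). Prodh in A/J WD replicate 5 was 95.1 CPM (144 to 179 in the other 5).

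The diet effect differed between the 7 strains, by the F test of limma-voom, for 18 of the 22 named members. The 22 were picked largely by their diet changes in these same data, so a high share was built in. Of all 43 members the test called 28, and of all genes 37.5%. The adjusted p was 3.61e-09 for Csad, 3.32e-06 for Glud1, 1.39e-05 for Gpt2 and 3.41e-05 for Asl. It was 0.00038 for Amt, 0.000497 for Agxt2, 0.00057 for Hgd and 0.000839 for Arg1. For Aass it was 0.00116, for Kynu 0.00134, for Got1 0.00174, for Haao 0.00243 and for Tdo2 0.00253. Tat had 0.00487, Acmsd 0.00509, Agxt 0.0109, Mccc1 0.0299 and Bckdhb 0.0373.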

How the results depend on the processing

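The 43 members called on CD by the F test and the 30 called in the mean over strains (29 to 34) kept within 1.5 times under every alternative run, and so did the 28 with a diet effect that differed between strains (20 with any count to 33 with quality weights). Of the 99 calls of a member in a strain, 60 held under every alternative run for it, 39 were lost under at least 1, and none turned its sign. The separate fits lost 22, genes of any count 15, and cohort as a covariate and upper-quartile factors 8 each. Among the members with the largest changes, the lost calls, with their adjusted p, were Acmsd in C57BL/6J in a separate fit (0.15), Got1 in DBA/2J (0.104) and Aass in WSB/EiJ (0.18) with genes of any count, and Agxt in A/J without A/J CD replicate 1 (0.101). With a separate fit for each strain, members called on WD numbered 8 in C57BL/6J (22 in the joint fit), 28 in 129S1/SvImJ (16) and 8 in CAST/EiJ (14). With quality weights they numbered 8 in WSB/EiJ (4) and 23 in PWK/PhJ (13), and in A/J 7 with cohort as a covariate or any count (12). Members with a response unlike the mean of the remaining 6 strains numbered, with quality weights, 8 in C57BL/6J (4), 7 in DBA/2J (2), 3 in A/J (0), 9 in WSB/EiJ (4) and 19 in PWK/PhJ (11), with DESeq2 7 in C57BL/6J, 13 in CAST/EiJ (8) and 7 in WSB/EiJ, with edgeR 2 in WSB/EiJ, with any count 3 in 129S1/SvImJ, 2 in WSB/EiJ and 7 in PWK/PhJ, with upper-quartile factors 3 in 129S1/SvImJ, and with cohort 7 in C57BL/6J. Without both C57BL/6J libraries, an alternative chosen after seeing the data, they numbered 10 in C57BL/6J and 4 in DBA/2J. The cause of these differences was not tested. Leaving out C57BL/6J CD replicate 2 gave 7 and C57BL/6J WD replicate 3 gave 11 in C57BL/6J, 3 in DBA/2J either way, and 6 to 7 in 129S1/SvImJ. Leaving out each A/J mouse gave 7 to 11 members called on WD in A/J (12 with all mice). No paired analysis was possible because the replicate numbers were given in accession order and pair no mice.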
